A study of Mus musculus with 5 samples.

Results

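The genes described here are 35 genes of the unfolded protein response and of the response to amino acid shortage, of 18193 genes measured. They were listed by name, with no measured value in the rule, but earlier results of these data were known when they were chosen. Each was read from the brightest of the probe sets annotated to that gene alone. All 35 had a value. The study hybridized RNA of sorted bone marrow cells of mice to 5 Affymetrix whole-genome expression arrays. Of these, 3 carry RNA from control rtTA mice and 2 from MSI2-inducible mice, all of strain C57BL/6. The controls are named for rtTA, a doxycycline-dependent transactivator that switches on inducible transgenes, and MSI2, a Musashi protein, binds RNA. The labels used here do not give the ages, the promoter of the transgene, or whether and for how long it was induced. The sorting gate is uncertain, since the sample labels give cells positive for both Sca1 and Kit (LSK) and the series' design text gives cells that lack Sca1 (LK). No label states that the arrays came from separate mice, so p-values cover only array-to-array spread, part of which may be technical.

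Proteins that are secreted or sit in membranes fold in the endoplasmic reticulum (ER). When unfolded protein builds up there, the membrane sensors IRE1 (gene Ern1), PERK (Eif2ak3) and ATF6 act through the factors XBP1, ATF4 and cleaved ATF6 to raise chaperones, disulfide isomerases and the machinery that returns misfolded proteins to the cytosol for degradation. ATF4 is also made when amino acids run short, and it then switches on amino acid synthesis and transport genes. Blood stem cells are known for low protein synthesis and for sensitivity to ER stress.

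Most ER chaperones read higher in MSI2-inducible than in control cells, led by Hspa5 (BiP), Dnajb9 and Creld2, as did the amino acid stress gene Asns, but none of the 35 genes passed the test across all genes. Values are log2 intensities, and every difference is the MSI2-inducible mean minus the control mean on that scale, so that 1 is a doubling of intensity. Of the 35 stress genes, 28 had a difference above 0 and 7 below (all genes: 50.4% above 0), and the median difference was 0.34, against 0.00 over all genes. Both MSI2-inducible arrays lay above every control array for 18 stress genes (51.4%; background 9.27%) and below every control array for 2 (5.71%; background 9.39%). An unadjusted limma p under 0.05 was reached by 10 stress genes, all higher (background 2.87% higher and 2.77% lower). At a limma adjusted p of 0.05, 0 of the 35 passed (background 0.022%, with 3 of 18193 genes, 0.0165%, higher and 1, 0.0055%, lower). The smallest adjusted p among them was 0.401, for Asns. Because the 35 were chosen with earlier results known, their excess over all genes is not an independent result. MSI2-inducible replicate 1 was set apart by its neutrophil markers (values below), so each array was also read alone. Replicate 2 lay above every control array for 21 of the 35 (60%; all genes 21.1%) and below for 6 (17.1%; all genes 26.4%), and replicate 1 for 24 (68.6%; all genes 31.9%) and 5 (14.3%; all genes 25.6%). The count of 10 was 4 without control replicate 3, 6 without control replicate 2 and 5 without MSI2-inducible replicate 1.

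**Figure D1:**
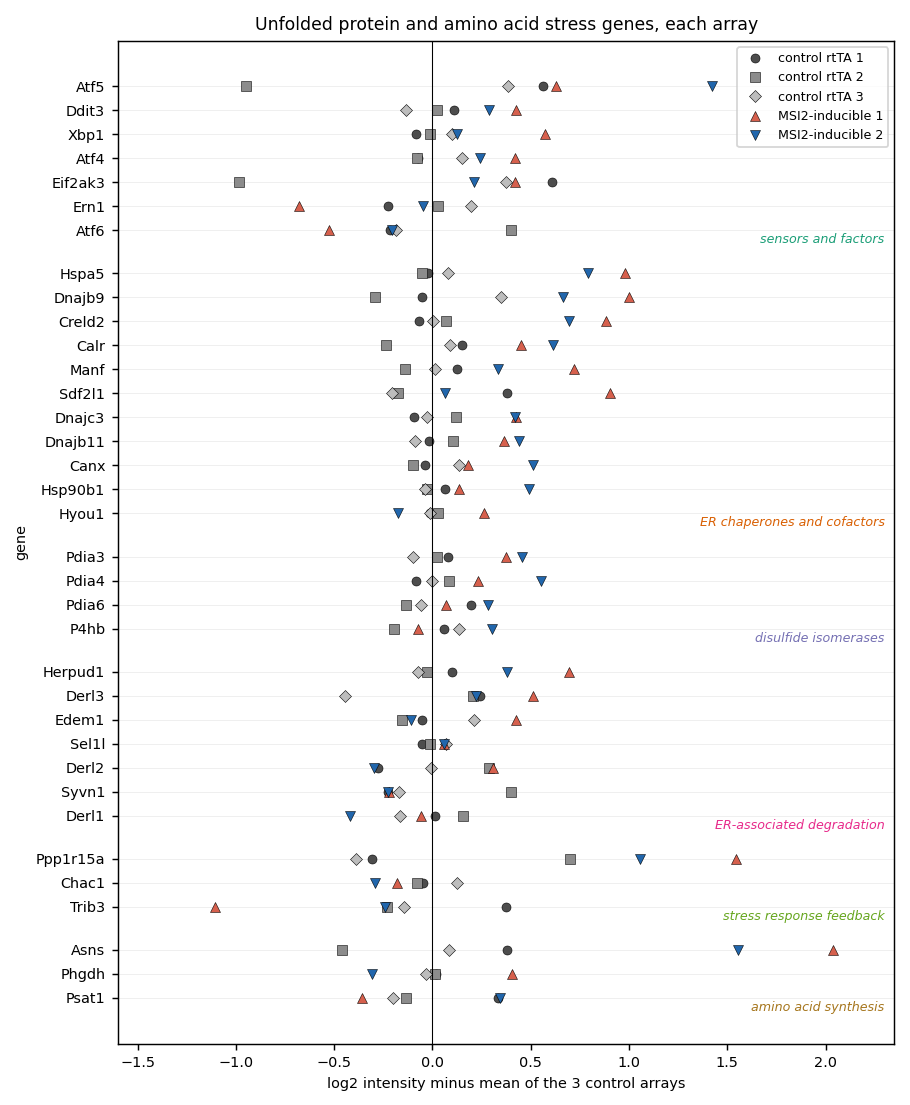
Log2 intensity of each of the 35 genes on each of the 5 arrays, minus the mean of the 3 control arrays, grouped by role (points are single arrays). Both MSI2-inducible arrays lie right of all control arrays for Hspa5, Dnajb9, Creld2, Calr, Ppp1r15a and Asns. The genes of ER-associated degradation other than Herpud1 overlap by the brightest probe set shown.

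Array quality bears on all of these values. Array medians lay between 46.4 and 48.3 intensity units, and correlations over genes were 0.979 to 0.989 between control arrays, 0.976 between the MSI2-inducible arrays and 0.965 to 0.986 across groups. The 3' minus 5' signal of Gapdh, a measure of RNA integrity, was 2.14, 2.60 and 2.40 on control arrays and 2.22 on both MSI2-inducible arrays. That of actin was -0.15, -0.15 and 0.01 on control arrays and -0.06 and -0.07 on MSI2-inducible arrays. Of 10 stem and progenitor markers measured, 8 read lower in MSI2-inducible cells (all genes: 50.4% above 0), and 2 were apart and lower (20%; background 9.39%). These were Mecom (-0.58) and Slamf1 (-1.27), which read 7.36, 7.99 and 7.66 in controls and 5.57 and 7.22 in MSI2-inducible cells, so that replicate 1 was level with the median probe set (5.57). Cd34 stood at 10.20 to 11.00 and Kit at 8.80 to 9.66. The list summed to 10433 to 10935 intensity units on control arrays and to 8062 and 11714 on MSI2-inducible replicates 1 and 2. The Sca1 gene Ly6a was not analysed here. Summed intensities of 8 erythroid markers were 9777 to 10506 on control and 12606 to 15144 on MSI2-inducible arrays. Those of 7 B lineage markers were 324 to 652 and 746 to 1023, and those of 7 stroma and endothelium markers 587 to 821 and 280 to 409. Of 10 marker lists, the sums of these 3 did not overlap between groups, and bright genes weigh most in a sum. By gene, all 8 erythroid markers were higher, with 3 apart and higher (37.5%; background 9.27%). The B lineage list had 4 higher and 3 lower, with 1 apart and higher (14.3%; background 9.27%). Stroma and endothelium also had 4 higher and 3 lower (median 0.02), with 1 apart and lower (14.3%; background 9.39%). Neutrophil markers (9 measured) summed to 14228 to 26635 on control arrays and to 62444 and 11743 on MSI2-inducible replicates 1 and 2. Plasma cells carry a strong secretory programme. Their markers (8 measured, of which Xbp1 and Derl3 are also stress genes) summed to 1331 to 2515 on control arrays and to 4595 and 1345 on the MSI2-inducible arrays, and 7 of the 8 were higher (87.5%), with 2 apart and higher (25%; background 9.27%). These were Xbp1 and Mzb1, which differed by 0.91 (5.24, 4.68 and 4.61 against 5.71 and 5.81). Jchain differed by 1.31 and Ighm by 0.50, both with overlapping arrays. The one lower marker was Prdm1 (-0.05), at 4.13 to 4.54 on the 5 arrays. The part of these cells in the differences below was not tested. In bulk RNA, a change in the share of a cell type and a change in RNA per cell cannot be told apart.

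Promoters of the stress genes were read from a RefSeq table (GRCm38.p6) of the 250 bases before and 50 after each transcription start. It held 31 of the 35 genes, and Atf6, Hyou1, Derl1 and Manf had no entry. The ER stress response element (ERSE, CCAAT and CCACG with 9 bases between them), the site at which NF-Y binds with ATF6 or XBP1, was matched on either strand in 9 stress genes (29.0%), compared with 0.119% of 32851 promoters. Its second form (ERSE-II, ATTGG and CCACG with 1 base between them) was matched in Herpud1 and Dnajb11 (6.45%, against 0.0365%). The heat shock element (GAA, TTC and GAA, with 2 bases between neighbours), bound by HSF1, was in 0 of the 31 and in 5 of 25 promoters of the heat shock list (20%, against 0.603%), those of Hsph1, Hspd1, Hspe1, Dnajb6 and Chordc1. TGACGTGG, known as the unfolded protein response element, was in 0 of the 31 and in 0.676% of promoters. Here and below, the elements are named for the responses whose genes were listed, so an excess among those genes is not an independent result. Shares of the listed genes count genes, whereas shares of all promoters count promoters. No match of one motif overlapped a match of another in these genes. The sequences below are shown because they set the chaperones beside ER degradation genes that carry the same element. They run 5' to 3' on the gene's strand, all lie before the start, and capitals mark the motif matches (for Herpud1, the first is the amino acid response element described below and the second ERSE-II).
Hspa5 (chr2:34771840-34772089, plus strand): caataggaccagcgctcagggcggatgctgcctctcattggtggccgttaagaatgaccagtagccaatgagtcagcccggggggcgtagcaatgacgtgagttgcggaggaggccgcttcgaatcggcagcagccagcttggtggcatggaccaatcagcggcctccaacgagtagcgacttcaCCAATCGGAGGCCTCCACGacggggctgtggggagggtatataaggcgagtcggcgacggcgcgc
Creld2 (chr15:88819500-88819558, plus strand): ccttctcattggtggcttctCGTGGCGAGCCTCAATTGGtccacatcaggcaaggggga
Calr (chr8:84847055-84847113, minus strand): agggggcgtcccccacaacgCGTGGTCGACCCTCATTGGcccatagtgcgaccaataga
Dnajc3 (chr14:118937807-118937865, plus strand): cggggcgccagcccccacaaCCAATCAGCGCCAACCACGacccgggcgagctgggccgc
Derl3 (chr10:75893222-75893280, plus strand): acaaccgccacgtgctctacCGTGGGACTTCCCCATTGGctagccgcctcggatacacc
Canx (chr11:50325780-50325838, minus strand): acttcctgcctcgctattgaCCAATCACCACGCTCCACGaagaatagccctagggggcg
Hsp90b1 (chr10:86705513-86705676, minus strand): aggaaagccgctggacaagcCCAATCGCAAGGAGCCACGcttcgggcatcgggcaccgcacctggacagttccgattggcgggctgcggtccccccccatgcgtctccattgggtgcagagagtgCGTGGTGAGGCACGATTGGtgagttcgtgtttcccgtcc
Pdia6 (chr12:17266471-17266529, plus strand): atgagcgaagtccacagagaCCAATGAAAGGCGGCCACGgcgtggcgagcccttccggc
Syvn1 (chr19:6046512-6046570, plus strand): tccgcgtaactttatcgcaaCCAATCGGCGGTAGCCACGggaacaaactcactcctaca
Herpud1 (chr8:94386297-94386407, plus strand): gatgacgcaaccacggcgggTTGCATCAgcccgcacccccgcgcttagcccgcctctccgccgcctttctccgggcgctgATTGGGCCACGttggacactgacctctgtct

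Of the 11 stress genes with either form of the element, 10 were higher (all genes: 50.4% above 0) and 8 of these had arrays apart from all controls (background 9.27%), with a median difference of 0.40. The exception was Syvn1, at -0.22. The 20 stress genes with a promoter but neither form had a median of 0.32, with 16 higher, 9 apart and higher (background 9.27%), and 2 apart and lower (background 9.39%), so the groups had nearby medians. A match describes letters only, and binding was not measured.

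**Figure D2:**
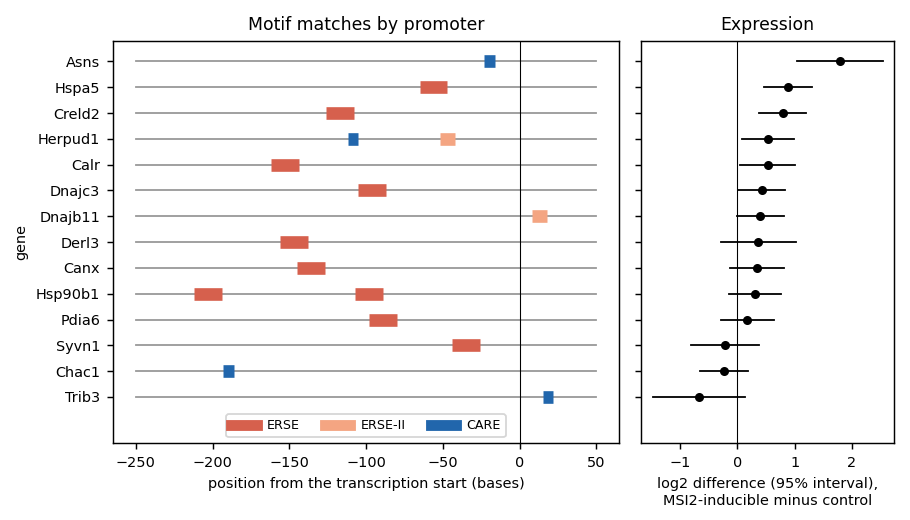
Left, positions of motif matches from the transcription start in bases for the 14 stress genes with a match; right, log2 difference with its 95% interval from limma. Genes with an ER stress element range from 0.89 for Hspa5 to -0.22 for Syvn1, and those with the amino acid element (CARE) from 1.80 for Asns to -0.67 for Trib3.

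The chaperones and their cofactors formed the largest of the 6 role groups, and their differences were all above 0. For these 11 genes the median was 0.48, and 9 had arrays apart and higher (81.8%; background 9.27%). Hspa5, which encodes BiP, the Hsp70 of the ER that holds the sensors inactive, read 11.69, 11.66 and 11.79 on control replicates 1, 2 and 3 and 12.69 and 12.50 on MSI2-inducible replicates 1 and 2. The gap between the groups was far wider than the range within either. Its mean was 11.71 ± 0.07 (SD, n = 3) in control arrays, and the difference was 0.89 (SE 0.17, 95% interval 0.47 to 1.30), a fold of 1.85, with a limma adjusted p of 0.482. The other Hspa5 probe sets differed by 1.04 and 1.05. Creld2, a secreted ER stress-induced protein, stood at 9.72, 9.86 and 9.80 in controls and at 10.68 and 10.49 in MSI2-inducible cells. That is a difference of 0.79 (SE 0.17, limma adjusted p 0.577), again with a wide gap. Dnajb9 (ERdj4), a co-chaperone of BiP that represses IRE1, was less even among controls, at 9.01, 8.77 and 9.41, with 10.06 and 9.73 in MSI2-inducible cells (difference 0.83, SE 0.25).

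Further chaperones had smaller gaps. Calr, calreticulin, a lectin chaperone for glycoproteins, read 11.49, 11.10 and 11.43 in controls and 11.79 and 11.95 in MSI2-inducible cells. Its 3 probe sets differed by 0.53, 0.59 and 0.72. Manf, a small secreted factor retained in the ER, had 10.67, 10.41 and 10.56 against 11.27 and 10.88, a difference of 0.53 that was 0.33 without MSI2-inducible replicate 1. Dnajc3 (p58IPK), a co-chaperone that also restrains PERK, had 9.24, 9.45 and 9.31 against 9.75 and 9.75, a difference of 0.42 that both MSI2-inducible arrays shared. Hsp90b1, the ER form of Hsp90 known as GRP94, lay at 11.68, 11.59 and 11.57 in controls and at 11.75 and 12.10 in MSI2-inducible cells. Replicate 1 was thus only just above the highest control, and the difference of 0.31 (SE 0.19) was 0.13 without replicate 2. The co-chaperone Dnajb11 (0.40) and the membrane lectin Canx (0.34) had arrays apart. Canx read 10.59, 10.53 and 10.76 in controls and 10.81 and 11.14 in MSI2-inducible cells, its difference was 0.18 without MSI2-inducible replicate 2, and 1 of its 3 probe sets differed by -0.32. Sdf2l1, a BiP cofactor, differed by 0.48 with overlapping arrays, and 0.06 without MSI2-inducible replicate 1. Hyou1, a nucleotide exchange factor of BiP, differed by 0.04 by its brightest probe set and by 0.31 and 1.11 by the others.

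All 4 disulfide isomerases, which form and rearrange disulfide bonds, had differences above 0, with a median of 0.28. The isomerase that works with calnexin and calreticulin, Pdia3, read 11.55, 11.50 and 11.37 in controls and 11.85 and 11.93 in MSI2-inducible cells. Its difference was 0.42 (SE 0.17). Pdia4 read 8.81, 8.97 and 8.89 in controls and 9.12 and 9.44 in MSI2-inducible cells, a difference of 0.39 with arrays apart. Pdia6 had 8.95, 8.62 and 8.70 against 8.82 and 9.04, a difference of 0.17. P4hb, which is also a subunit of prolyl hydroxylase, differed by 0.12, and the arrays of Pdia6 and P4hb overlapped. Without MSI2-inducible replicate 2 these differences were 0.23, 0.067 and -0.074. The median of the 4 was 0.15 in MSI2-inducible replicate 1 and 0.38 in replicate 2, so replicate 2 was the higher array in this group. The second Pdia4 probe set, with means of 3.98 and 3.75, differed by -0.22.

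Sensors and transcription factors were split. Both stress sensors measured as lower had overlapping arrays. Ern1, the kinase and nuclease that splices Xbp1 mRNA, read 8.85, 9.10 and 9.27 in controls and 8.39 and 9.02 in MSI2-inducible cells, a difference of -0.37 (95% interval -0.99 to 0.26) that was -0.049 without MSI2-inducible replicate 1 and -0.68 without replicate 2. Of its 5 probe sets, 3 were lower and 2 higher. Atf6, the sensor that is cleaved in the Golgi to become a factor, read 9.24, 9.85 and 9.27 against 8.92 and 9.25, also a difference of -0.37, which was -0.17 without control replicate 2 and -0.20 without MSI2-inducible replicate 1. The third sensor, Eif2ak3, which phosphorylates eIF2alpha, read 7.23, 5.64 and 6.996 against 7.04 and 6.83. Control replicate 2 was far below the others, and the difference of 0.31 became -0.18 without it. Other Eif2ak3 probe sets differed by 0.20 and 1.46, both with overlapping arrays. The probe set at 1.46 read 6.35 and 3.29 on MSI2-inducible replicates 1 and 2.

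The downstream factors had arrays apart and higher, 4 of the 7 sensors and factors (57.1%; background 9.27%). Xbp1 read 7.95, 8.02 and 8.13 in controls and 8.61 and 8.16 in MSI2-inducible cells, so replicate 2 sat just above the highest control. The difference of 0.35 was 0.12 without MSI2-inducible replicate 1 and 0.57 without replicate 2. All 4 Xbp1 probe sets were higher, by 0.34 to 0.99, and array signal does not separate its spliced from its unspliced form. Atf4, the factor translated when eIF2alpha is phosphorylated, had 10.56, 10.56 and 10.79 against 11.05 and 10.88 (difference 0.33, SE 0.18), and its other probe sets differed by 0.60 and 0.18. Ddit3, which encodes CHOP, a factor tied to cell death under lasting stress, had 8.69, 8.61 and 8.45 against 9.01 and 8.87 (difference 0.35, SE 0.17). A second Ddit3 probe set differed by 0.46 with overlapping arrays. Atf5, an ATF4-related factor, was uneven among controls, at 6.63, 5.11 and 6.45, with 6.69 and 7.48 in MSI2-inducible cells. Its difference of 1.02 (SE 0.51) was 0.55 without control replicate 2, and MSI2-inducible replicate 1 was only just above the highest control.

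Genes of ER-associated degradation had a median difference of 0.06 over 7 genes, and 1 of 7 had arrays apart and higher (14.3%; background 9.27%). That gene was Herpud1, a membrane adaptor of the degradation complex, which read 8.07, 7.94 and 7.89 in controls and 8.66 and 8.35 in MSI2-inducible cells. The difference was 0.54 (SE 0.18, limma adjusted p 0.870), and a second Herpud1 probe set differed by 0.04 with overlapping arrays. The ubiquitin ligase Syvn1 differed by -0.22 (-0.023 without control replicate 2) and its partner Sel1l by 0.06. All 5 Sel1l probe sets were higher, the others by 0.14 to 0.46, with arrays apart for those at 0.26 and 0.46. Edem1, which draws misfolded glycoproteins out of the folding cycle, differed by 0.16, and by 0.41 by its second probe set, both with overlapping arrays. Differences of the derlins, membrane proteins of the export channel, were -0.24 for Derl1 (-0.059 without MSI2-inducible replicate 2), 0.00 for Derl2 and 0.37 for Derl3, whose means of 3.89 and 4.26 were dimmer than the median probe set (5.57), where sizes are uncertain (0.14 without control replicate 3). Other probe sets differed by -0.07 for Syvn1, by -0.16 to 0.07 for Derl1 and by -0.20 for Derl2, the last with arrays apart and lower. By the brightest probe sets, the median of the 7 was 0.31 in MSI2-inducible replicate 1 and -0.11 in replicate 2.

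**Figure D3:**
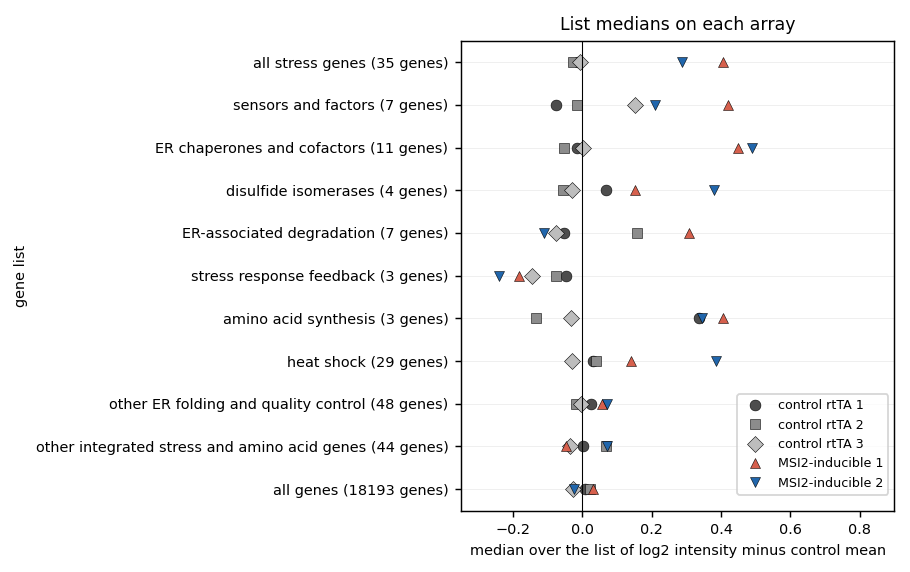
Median over each gene list of log2 intensity minus the control mean, for each of the 5 arrays (points). The 11 ER chaperones stand at 0.45 and 0.49 on the MSI2-inducible arrays and between -0.05 and 0.00 on control arrays, while the other ER folding genes stand at 0.06 and 0.07.

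Feedback genes of the stress response differed in sign. Ppp1r15a (GADD34), the phosphatase subunit that reverses eIF2alpha phosphorylation, read 8.59, 9.59 and 8.51 in controls and 10.44 and 9.95 in MSI2-inducible cells, a difference of 1.30 (SE 0.38, limma adjusted p 0.835). Control replicate 2 was about 1 unit above the other controls. By contrast, the ATF4 and CHOP target Trib3, a pseudokinase, had 8.55, 7.95 and 8.03 against 7.07 and 7.94. MSI2-inducible replicate 2 was level with the lowest control (7.935 against 7.945), and the difference of -0.67 was -0.24 without replicate 1. A second Trib3 probe set, with means of 5.54 and 5.32, differed by -0.23 with overlapping arrays. Chac1, which degrades glutathione and is also an ATF4 target, had 3.52, 3.49 and 3.69 against 3.38 and 3.27. All are dimmer than the median probe set, so the difference of -0.24 is of uncertain size.

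Among the 3 amino acid synthesis genes Asns alone had arrays apart, and its difference was the largest of the 35. Asns, asparagine synthetase, read 7.995, 7.16 and 7.70 in controls and 9.66 and 9.17 in MSI2-inducible cells. Its mean was 7.62 ± 0.43 (SD, n = 3) in control arrays, and the difference was 1.80 (SE 0.30, 95% interval 1.05 to 2.54), a fold of 3.47, with a limma adjusted p of 0.401. A second Asns probe set differed by 1.36, also with arrays apart. Values of the serine synthesis enzymes lay on both sides of the controls. Phgdh, the first step, read 12.30, 12.30 and 12.25 in controls and 12.69 and 11.98 in MSI2-inducible cells, above and below all controls. Psat1, the next step, read 11.79, 11.32 and 11.26 against 11.10 and 11.80, again on both sides. Their differences were 0.05 (95% interval -0.55 to 0.65) and -0.01 (-0.72 to 0.70).

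The amino acid response element (CARE, TGATGNAA), which ATF4 binds with C/EBP factors, was matched in Asns, Chac1, Herpud1 and Trib3 (12.9%, against 3.97% of promoters). Asns and Chac1 are shown since their differences had opposite signs, with the match in capitals. The Trib3 match lay after the start.
Asns (chr6:7693210-7693252, minus strand): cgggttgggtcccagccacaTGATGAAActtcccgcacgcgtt
Chac1 (chr2:119351029-119351076, plus strand): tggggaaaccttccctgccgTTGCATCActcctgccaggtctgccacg

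Probe sets of one gene can read different transcripts, and 82 probe sets were annotated to 1 of the 35 genes alone. Of these, 64 were higher and 18 lower. Among the 25 genes with more than 1 probe set, 7 had probe sets of both signs. These were Atf6, Ern1, Canx, Pdia4, Derl1, Derl2 and Phgdh. In Hspa5, Hsp90b1, Calr, Xbp1, Atf4 and Asns every probe set was higher with arrays apart.

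**Figure D4:**
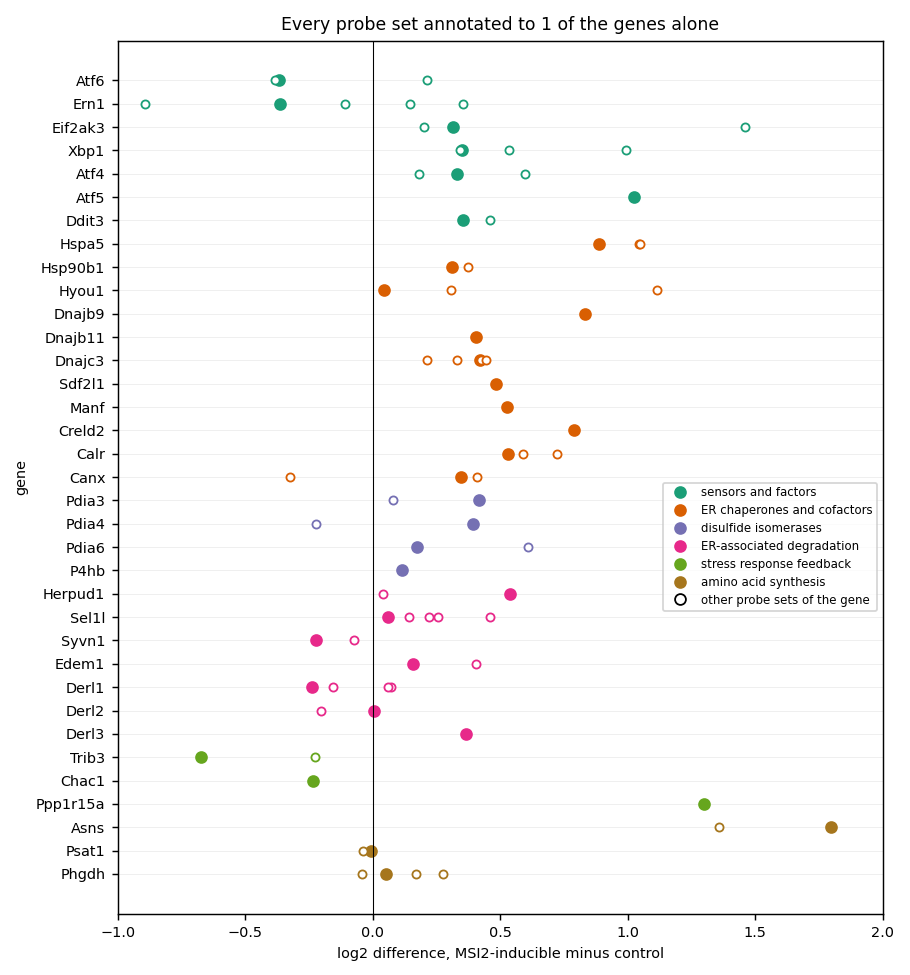
Log2 difference, MSI2-inducible minus control, of all 82 probe sets of the 35 genes; filled points are the brightest probe set, open points the others. The 3 Hspa5 probe sets lie between 0.89 and 1.05, whereas those of Ern1 lie on both sides of 0.

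Genes beyond the 35 were set beside them from lists of the neighbouring pathways. The heat shock list holds mostly chaperones and co-chaperones of the cytosol, together with the mitochondrial chaperonins Hspd1 and Hspe1 and the transcription factor Hsf2. It had a median of 0.28 over 29 genes, with 27 higher (93.1%; all genes 50.4%), 15 with arrays apart and higher (background 9.27%), and 0 apart and lower (background 9.39%). The 35 genes had nearly the same share apart (51.4% against 51.7%), and the largest differences of the heat shock list were larger. Hspa1a and Hspa1b, near-identical inducible Hsp70 genes that probes may not separate, differed by 4.36 and 3.85. Cryab differed by 2.19. The control means of Hspa1a (4.84) and Cryab (4.09) were dimmer than the median probe set (5.57), where sizes are uncertain. Hsph1, an exchange factor of Hsp70, differed by 0.96. Cacybp, a co-chaperone-like adaptor, and the Hsp40 gene Dnajb4 differed by 0.48 and 0.50. By their medians, the lists ranked the MSI2-inducible arrays differently. The heat shock median was 0.14 in MSI2-inducible replicate 1 and 0.39 in replicate 2, whereas that of the 35 genes was 0.40 and 0.29. Single heat shock genes went both ways. Hspa1a, Hspa1b and Hsph1 read 10.21, 11.67 and 12.11 in replicate 1 and 8.18, 9.89 and 11.96 in replicate 2. Cryab (5.65 and 6.90) and Dnajb4 (10.81 and 10.88) read higher in replicate 2. No heat shock gene passed the limma test across all genes, with 8 higher and 0 lower at an unadjusted p under 0.05 (background 2.87% and 2.77%).

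Other ER folding and quality control genes had a median of 0.04 over 48 genes, with 29 higher and 19 lower, and 7 apart and higher (14.6%; background 9.27%) and 4 apart and lower (8.33%; background 9.39%). At an unadjusted limma p under 0.05, 3 were higher and 3 lower (background 2.87% and 2.77%). The ER ubiquitin-conjugating enzyme Ube2j2 differed by 0.54, Txndc5, a disulfide isomerase, by 0.69 and Selenos by 0.61. Below 0 were Wfs1, an ER membrane protein, at -1.06, the lectin Erlec1 at -0.61 and Edem3, a relative of Edem1, at -0.70. Other genes of the integrated stress and amino acid response had a median of 0.06 over 44 genes, with 6 apart and higher (13.6%; background 9.27%) and 2 apart and lower (4.55%; background 9.39%). At an unadjusted p under 0.05, 5 were higher and 0 lower (background 2.87% and 2.77%). The 5 were Wars, tryptophanyl-tRNA synthetase (1.26), Mthfd2, a mitochondrial folate enzyme (0.79), Bcat1, which transfers amino groups of branched-chain amino acids (0.66), Bbc3, the cell death gene Puma (0.63), and Slc3a2, the heavy chain of amino acid transporters (0.60). Bcat1 in both groups (means 4.76 and 5.42) and Bbc3 in controls (5.23) were dimmer than the median probe set (5.57), where sizes are uncertain. Atf3 differed by 1.62 with overlapping arrays (4.05, 5.88 and 5.66 against 7.96 and 5.67). None of these passed the limma test across all genes (adjusted p from 0.549 to 0.911).

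**Figure D5:**
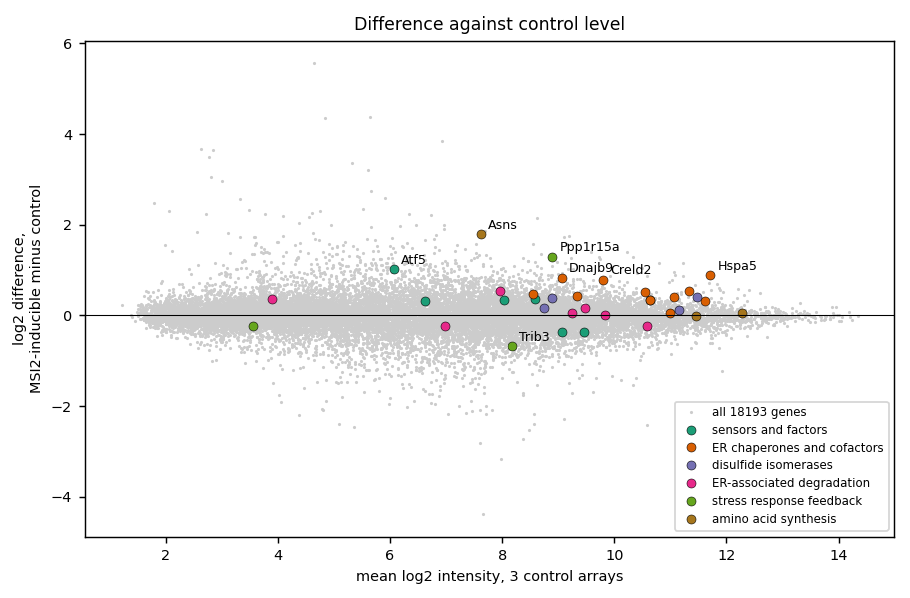
Log2 difference, MSI2-inducible minus control, against the mean log2 intensity of the 3 control arrays for all 18193 genes (grey) and the 35 stress genes by role (coloured). Asns (1.80), Ppp1r15a (1.30) and Hspa5 (0.89) lie at percentiles 99.8, 99.3 and 98.1 of all differences, and Trib3 (-0.67) at 3.67.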

How the data were processed

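The authors deposited linear intensities per probe set, already normalized between arrays. The submitters' processing notes name RMA, affy and R 2.11.0, and how the values became linear is not given in the sources. Values were used as log2, without a pseudocount or renormalization. Of 45101 probe sets (64 controls), 34958 had 1 symbol, 932 several and 9211 were unnamed here. Symbols were updated by Entrez ID, and each gene was read from its brightest probe set. The test was limma's (version 3.58.1, R 4.3.3, functions lmFit and eBayes, group as the only term), two-sided, with Benjamini-Hochberg adjustment over 18193 genes at 0.05. This was run first on simulated data with independent noise. That run checked the code and was not used to judge power at the sizes of difference seen here. The number of arrays limits the precision.

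The genes, lists, motifs and alternatives were chosen with earlier results of these data known, so lists are described by counts and medians. All 35 genes are named. Per-array values are given for sensors and factors, Hspa5, Hsp90b1, feedback and amino acid synthesis genes and the 10 smallest p, and from each neighbouring list the 5 smallest p and 2 largest differences are named. Cryab, Selenos and the per-array values of heat shock genes were added after their values were seen. Single probe sets and marker genes named were chosen after their values were seen. Alternatives changed how probe sets were joined, low values, scaling, the variance model and array weights, added the replicate number as a block, or left out an array. Figures were drawn with matplotlib 3.10.9.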

Additional observations from a re-analysis of the deposited data

How the results depend on the processing

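No stress gene passed the limma test under any alternative (0 of 35, and 0 of 82 probe sets on their own; lowest adjusted p 0.121), and of 486 differences under 14 alternatives 474 kept their sign. Turned were Derl2 with the mean of probe sets (-0.10) and with quantile normalization once more (-0.023), and Psat1 with arrays centred on the median (0.012); with arrays left out, Derl2 ranged from -0.30 to 0.31, Psat1 from -0.36 to 0.34, Eif2ak3 from -0.18 to 0.62, Hyou1 from -0.17 to 0.26, Edem1 from -0.11 to 0.43, Phgdh from -0.31 to 0.40 and P4hb from -0.074 to 0.31. The cause was not tested. The median of the 35 was 0.37 with the mean of probe sets, 0.33 with quantile normalization, 0.36 with arrays centred and 0.32 with array weights (left-out arrays 0.29 to 0.40). Chaperones gave 0.45 with array weights (left out 0.41 to 0.59). With the mean of probe sets isomerases gave 0.18 and degradation genes 0.23 (left out 0.15 to 0.38 and -0.11 to 0.31). Amino acid synthesis genes gave 0.68 without _x_at probe sets (left out 0.033 to 0.40), and feedback genes turned to 0.31 with low values left out and with a floor of 16 intensity units, since Chac1 is then removed or at the floor (left out -0.27 to -0.17). Left-out ranges were 0.21 to 0.42 for sensors and factors, 0.14 to 0.39 for heat shock, 0.020 to 0.073 for other ER genes and -0.047 to 0.11 for other amino acid stress genes.

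Stress genes apart and lower numbered 1 without _x_at probe sets, with low values left out and with the floor (left out 2 to 6). All genes passing as higher numbered 1 with the floor and with array weights (left out 0 to 0), and as lower 2 with low values left out and with quantile normalization, 0 with the floor and 3 at the looser threshold of 0.10 (left out 0 to 0). Replicate numbers pair nothing in the labels (correlation of same-numbered deviations 0.134 and 0.0990). With replicate number as a block, which leaves control replicate 3 without a partner, 0 genes were higher and 0 lower, 5 stress genes had an unadjusted p under 0.05 (left-out arrays 4 to 9), and medians were 0.36 for the 35, 0.22 for heat shock, 0.020 for other ER genes, 0.41 for chaperones and -0.17 for feedback genes. A lone MSI2-inducible array was taken to vary as controls do. Signal near the floor limits Chac1 and Derl3.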

Other observations

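Genes outside the 35 whose promoters hold the ER stress element were examined after the promoter matches were seen. Of further tested genes, 18 held ERSE or ERSE-II, of which 12 were higher and 6 lower (all genes: 50.4% above 0), with a median difference of 0.10 against 0.40 for the 11 stress genes with the element. Both MSI2-inducible arrays lay above every control array for 2 of them and below for 2, against 9.27% and 9.39% of all genes. Rbm39, a splicing factor, read 11.15, 11.11 and 11.30 in controls and 11.71 and 11.70 in MSI2-inducible cells, and Acacb, the mitochondrial acetyl-CoA carboxylase, differed by 0.48. Lgalsl, a galectin-like gene, differed by -0.54 and Pan2, a poly(A) nuclease subunit, by -0.23. Ero1b, an ER oxidase that supplies disulfide bonds, differed by -0.05 and the calcium-binding nucleobindin Nucb1 by 0.15, both with overlapping arrays. None passed the limma test across all genes.

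The amino acid response element was in the promoters of 464 further tested genes, with 223 higher and 241 lower and a median of -0.01. The heat shock element was in 88, with 52 higher and 36 lower and a median of 0.03. These values describe the genes that hold the letters, and no factor's binding was measured.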
